A study of Mus musculus with 304 samples.

Results

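The semaphorins, plexins and neuropilins of single mouse dentate granule cells were described across 5 groups of cells. The genes were taken by symbol, as every row named Sema followed by a digit, Plxn followed by a, b, c or d, Nrp1 or Nrp2. The rule uses no measured value, though the members were chosen with earlier results of these data known. The rule gave 31 of the 22800 genes in the count table: 20 semaphorins, 9 plexins and 2 neuropilins. A patch pipette took up the cytosol of each cell, which was then sequenced as a library of its own (Patch-seq), and only libraries that the labels mark as passing quality control were used. Kainate (kainic acid), an agonist of kainate-type glutamate receptors that is used to provoke seizures, had been given by microinjection of 70 nl at 5 mM into the hippocampus. The day 1 group holds 58 cells of the injected side taken 1 day after kainate, and the day 14 group holds 29 cells taken 14 days after it. The control group holds 31 cells of mice that received no injection. In a second experiment, 71 cells overexpressed Id2, an inhibitor of basic helix-loop-helix transcription factors that itself lacks a DNA-binding region, 1 month after injection of an adeno-associated virus (AAV), and 59 cells overexpressed GFP from such a virus over the same time. The sources used here give no strain, age, sex or viral promoter.

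No label names an animal, so each group counts as 1 sample. No test across animals could be made, and every difference below is a description of these cells. The kainate cells carry another series of titles than the control cells, and the day 1 and day 14 cells carry title numbers that do not overlap, so a possible batch and the group cannot be told apart there. The day 1 and day 14 comparisons share the same 31 control cells.

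Semaphorins are guidance proteins that steer growing axons, prune connections and shape synapses. Those of class 3 are secreted and mostly act through a complex of a neuropilin, which binds the ligand, and a class A plexin, which signals by acting on small GTPases inside the cell. Sema3e is the exception in that class, since it binds plexin D1 directly. Members of classes 4, 5 and 6 span the membrane. Class 4 members such as Sema4d act on class B plexins, and Sema5a, Sema5b and class 6 members act on class A plexins. Sema7a is anchored in the membrane by a lipid and binds plexin C1 and integrins. In the mouse hippocampus, Sema6a, Sema6b, Plxna2 and Plxna4 set the layer in which mossy fibres, the axons of granule cells, end on CA3 pyramidal cells, and Sema3f acts through Nrp2 and Plxna3 to prune a transient branch of the same axons.

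Levels are given as counts per 1000000 counts (CPM): the counts of all cells of a group were summed, and each gene's sum was set against the group's total. A log2 ratio was taken between 2 groups after adding 1 CPM to each. To count as measured, a gene had to have a read in 20% or more of the cells of 1 of the compared groups and to reach 5 CPM in 1 of them. A measured gene was called higher or lower at a difference of at least 2-fold (a log2 ratio of at least 1 in size). A member is described in full where 3 versions of the ratio all passed that size with 1 sign: summed counts, the mean over cells, and cells thinned to 100000 reads each. Counting intervals of a ratio join the exact 95% Poisson limits of the reads of both groups. The lower limit of 1 group is set against the upper limit of the other, so these intervals are not exact 95% intervals of the ratio. They cover counting error only, since reads are not independent molecules, and they are narrow beside the spread between cells. Exact intervals of a share of cells (Clopper-Pearson) treat cells as independent draws. Cells of a group may share an animal, so those intervals do not cover the spread between animals and serve as description only. For every member and every group, the lowest cell was at 0, so the cells of any 2 groups overlapped.

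The depth was 2655957 to 27708910 reads per cell at day 1, 3316541 to 16659669 at day 14 and 32487 to 7923833 in controls, where 6 cells had fewer than 500000 reads. It was 780899 to 12639081 reads in Id2 cells and 312004 to 7596250 in GFP cells. Id2 itself reached 37369 CPM in Id2 cells, with 1446 CPM in the lowest cell, against 93.2 CPM in GFP cells. All 12 granule cell markers had reads in every group, with a summed level of 2213 CPM in day 1, 2404 CPM in day 14, 4560 CPM in control, 3335 CPM in Id2 and 4914 CPM in GFP cells. All 15 microglial markers had reads except P2ry12, which was at 0 at day 1. Their summed level was 831 CPM in day 1, 7007 CPM in day 14, 3866 CPM in control, 625 CPM in Id2 and 182 CPM in GFP cells. Cells above 1000 CPM of these markers (microglia-rich cells) numbered 8 of 58 at day 1, 20 of 29 at day 14, 17 of 31 in controls, 11 of 71 in Id2 and 2 of 59 in GFP cells, and values without them are given beside the called members that they move by over 1.5 times or whose call they end.

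The dominant members were receptors. Per kb of exon, Nrp1 and Plxna4 held the first and second places in control, day 14, Id2 and GFP cells, and Nrp1 and Sema3e held them at day 1. The 31 genes together took 1087 CPM in day 1, 864 CPM in day 14 and 1116 CPM in control cells, and 1144 CPM in Id2 against 1365 CPM in GFP cells. Among thinned cells, a cell held reads of 6 members (the median) at day 1, 6 at day 14 and 5 in controls. This median was 4 in Id2 cells and 5 in GFP cells. The highest number in any thinned cell was 13, at day 14, and unthinned cells could hold more. Many members were thin: 12 of the 31 members with reads at day 1 took more than 50% of them from a single cell, as did 14 of 28 at day 14, 17 of 26 in controls, 11 of 29 in Id2 and 14 of 30 in GFP cells. In controls, these members included Sema3e with 85.3% of reads in 1 cell, Sema6d with 67.4%, Sema5b with 59.5%, Plxnb2 with 56.6%, Plxna1 with 51.2% and Sema6b with 50.2%, so their ratios to control lean on 1 cell.

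**Figure D1:**
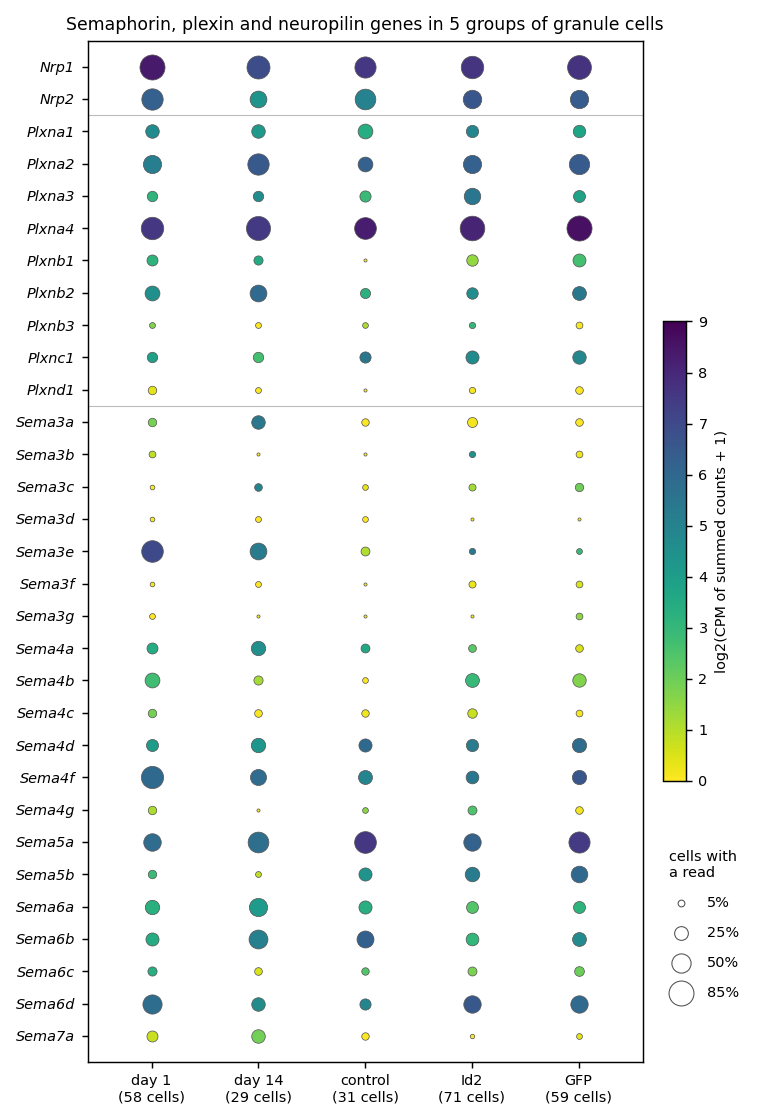
Level and spread of all 31 members in the 5 groups. Each dot is 1 gene in 1 group, its colour the log2 of CPM of summed counts plus 1 and its area the share of cells with a read. Nrp1 and Plxna4 are dark and wide in every column, the Sema3e dots are wide at day 1 (63.8% of cells) and day 14 (37.9%) and small in the other groups, and most other class 3 semaphorins are pale.

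The secreted class 3 semaphorins were near 0 in cells of uninjected mice. Their 7 genes summed to 131.99 CPM at day 1, 109.5 CPM at day 14 and 1.44 CPM in controls. Sema3e alone made up 97.3% of the day 1 sum. At day 14, the largest share of the sum was that of Sema3a, with 38.4%. Sema3a, Sema3c, Sema3d and Sema3e lie on mouse chromosome 5 (GRCm38), in a stretch that runs from position 12383385, where Sema3d starts, to position 17730268, where Sema3c ends. Among these neighbours Sema3d had at most 0.0452 CPM in any group.

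The 5 members whose difference from controls kept its call under all 15 alternatives at 1 or both times were Sema3e, Sema4b and Sema3a, which were higher, and Sema5a and Sema6b, which were lower. Their promoters are printed as the 250 bases before a RefSeq start of transcription, read 5′ to 3′ on the gene's own strand, on GRCm38.p6. Capitals mark matches to the E-box letters CANNTG, the motif of basic helix-loop-helix factors. The windows lie at chr5:14025026-14025275 (Sema3e, plus strand), chr5:13396534-13396783 (Sema3a, plus strand), chr7:80186620-80186869 (Sema4b, plus strand), chr15:32244563-32244812 (Sema5a, plus strand) and chr17:56140344-56140593 (Sema6b, minus strand). Sema4b and Sema6b have 2 starts in that table, and the window before the most upstream one is given. In the GENCODE M21 annotation, Sema3a runs from position 13125414 to 13602565. The Sema3a window thus lies inside the annotated gene, before a RefSeq start within it, and not before the whole gene.
Sema3e: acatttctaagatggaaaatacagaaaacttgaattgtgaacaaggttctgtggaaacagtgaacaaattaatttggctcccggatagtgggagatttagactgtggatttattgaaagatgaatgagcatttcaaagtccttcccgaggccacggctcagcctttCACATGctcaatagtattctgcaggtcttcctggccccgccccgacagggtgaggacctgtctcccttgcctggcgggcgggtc
Sema3a: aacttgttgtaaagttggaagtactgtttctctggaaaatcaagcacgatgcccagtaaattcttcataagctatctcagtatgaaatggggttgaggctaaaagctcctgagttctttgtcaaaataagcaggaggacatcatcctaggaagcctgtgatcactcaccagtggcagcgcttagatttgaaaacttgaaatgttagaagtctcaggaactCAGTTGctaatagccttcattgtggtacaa
Sema4b: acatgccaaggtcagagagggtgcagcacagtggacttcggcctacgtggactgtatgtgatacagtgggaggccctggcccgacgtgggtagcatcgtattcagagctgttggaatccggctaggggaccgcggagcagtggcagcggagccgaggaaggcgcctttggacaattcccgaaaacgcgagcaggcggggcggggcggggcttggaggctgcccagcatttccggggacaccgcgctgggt
Sema5a: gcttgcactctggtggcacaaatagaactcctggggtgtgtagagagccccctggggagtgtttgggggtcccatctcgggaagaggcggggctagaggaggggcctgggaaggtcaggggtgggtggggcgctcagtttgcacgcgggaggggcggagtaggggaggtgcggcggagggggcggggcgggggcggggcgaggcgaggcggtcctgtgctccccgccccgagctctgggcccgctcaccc
Sema6b: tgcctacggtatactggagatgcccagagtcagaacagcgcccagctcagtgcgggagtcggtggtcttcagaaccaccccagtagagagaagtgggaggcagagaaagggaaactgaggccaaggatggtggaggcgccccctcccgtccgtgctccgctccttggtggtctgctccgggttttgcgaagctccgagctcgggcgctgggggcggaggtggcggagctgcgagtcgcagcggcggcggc
The E-box letters occurred once in the Sema3e window, 84 bases before the start, and once in the Sema3a window, 30 bases before it. They did not occur in the windows of Sema4b, Sema5a and Sema6b. Of 32807 windows of the same length before all starts in the table, 66.2% held these letters. The AP-1 letters TGANTCA, searched because AP-1 factors follow neuronal activity, and the cyclic AMP response letters TGACGTCA were found in none of the 5 windows on either strand. They occurred in 6.75% and in 1.55% of all windows. The share of G and C was 48% in the Sema3e window, 40.8% in that of Sema3a, 64.4% in that of Sema4b, 72% in that of Sema5a and 66% in that of Sema6b, with a median of 52.4% over all windows. These matches describe the letters of the windows and say nothing of binding.

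One day after kainate, the ligand Sema3e stood out among the members. Sema3e is a secreted semaphorin whose own receptor, plexin D1, needs no neuropilin. It was at 128.4 CPM in day 1 cells, with a median of 28.4 CPM and a highest cell of 1115 CPM, against 1.12 CPM in controls, with a median of 0 and a highest cell of 80.6 CPM. Above 100 CPM were 21 of 58 day 1 cells and 0 of 31 control cells. Reads were found in 37 of 58 day 1 cells (63.8%, exact Clopper-Pearson interval 50.1% to 76%) and in 3 of 31 control cells (9.68%, 2.04% to 25.8%). At an equal depth of 100000 reads these shares were 55.2% in day 1 cells and 3.45% in the 29 control cells deep enough. This gave a log2 ratio of 5.93 (counting interval 5.74 to 6.12), and over 15 alternatives it lay between 4.09 and 6.95. With microglia-rich cells left out it was 5.04. High values were thus spread over many day 1 cells, and the highest of them held 12.8% of the group's Sema3e reads.

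The day 1 levels of Sema3e were not matched by its receptor. Plxnd1, the plexin that binds Sema3e, had 0.278 CPM in day 1 cells and no read in control cells, which at this depth allows up to 0.0447 CPM (3 counts over the group). Of the 37 day 1 cells with Sema3e, 4 had a Plxnd1 read. Nrp1, which modifies the response to Sema3e in mouse neurons, was read in 36 of these 37 cells and in 66.7% of the other 21 day 1 cells. Cells share their depth between the genes read in them, so these shares are given as a description.

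Of the 15 members measured at day 1 against control, 6 were called higher and 5 lower. Over all 9079 genes measured in this comparison, 23.2% were called higher and 15.2% lower. The median log2 ratio was 0.80 over the 15 members and 0.17 over all measured genes. It was -0.08 over the 9 measured semaphorins and 0.25 over the 4 measured plexins. The higher members were Sema3e, Sema4b, Sema4f, Nrp2, Plxna1 and Plxnb2. The lower members were Sema4d, Sema5a, Sema5b, Sema6b and Plxna2. The ratios of Nrp2, Plxna1, Plxnb2 and Plxna2 did not pass 2-fold in all 3 versions, and those of the other 7 did.

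Sema4b and Sema4f are transmembrane class 4 semaphorins, and Sema4b is known to take part in synapse assembly. Sema4b reached 5.78 CPM in day 1 cells, with a median of 0 and a highest cell of 96 CPM, against 0.0298 CPM in controls, where 2 reads in 1 cell made up the sum. A read was present in 17 of 58 day 1 cells and 1 of 31 control cells. At equal depth it was present in 12.1% of day 1 cells and 0 of 29 control cells, where the exact interval reaches up to 11.9%. The log2 ratio was 2.72 (counting interval 2.57 to 2.80) and lay between 1.06 and 5.50 over the alternatives. Sema4b was thus a low but repeated signal of day 1 cells, and a rare one in control cells. It was read in 23.7% of GFP cells, at 2.26 CPM, and the value of 1.06 came from setting GFP cells in place of controls.

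Sema4f was the most widely read class 4 member at day 1. It stood at 61.3 CPM in day 1 cells, with a median of 12.6 CPM and a highest cell of 398 CPM, against 29.3 CPM in controls, with a median of 0 and a highest cell of 254 CPM. Reads were found in 39 of 58 day 1 cells and in 8 of 31 control cells. The control level differed between the title sets of that group, with 4.53 CPM over the 22 cells with J titles and 82.7 CPM over the 9 cells with other titles. The log2 ratio of 1.04 therefore became 3.49 against the first set and -0.43 against the second, and it was -0.63 against GFP cells. Leaving out microglia-rich cells gave 0.22.

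The lower semaphorins at day 1 were of classes 4, 5 and 6. Sema5a, a transmembrane ligand that in mouse granule cells is known to limit excitatory synapses through Plxna2, was at 56.9 CPM in day 1 cells, with a median of 0 and a highest cell of 426 CPM, against 189 CPM in controls, with a median of 67 CPM and a highest cell of 1420.5 CPM. A read was present in 24 of 58 day 1 cells and 20 of 31 control cells. This gave a log2 ratio of -1.71 (counting interval -1.75 to -1.67), between -2.25 and -1.54 over the alternatives. It was -1.78 against the J-titled controls, -1.54 against the others and -1.57 against GFP cells, so Sema5a was lower against both sets of controls and against GFP cells.

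Sema6b, a transmembrane ligand of Plxna4, had the lowest ratio at day 1. It was at 10.1 CPM in day 1 cells, with a highest cell of 131 CPM, against 75.7 CPM in controls, with a highest cell of 1017 CPM; the median was 0 in each group. Reads were found in 13 of 58 day 1 cells and 12 of 31 control cells. The log2 ratio was -2.79 (counting interval -2.87 to -2.72) and lay between -4.05, without microglia-rich cells, and -1.28, against GFP cells. A single control cell held 50.2% of the control reads, and without the highest cell of each group the ratio was -2.16.

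Sema4d, a ligand of plexin B1, and Sema5b were lower at day 1 against the pooled controls. Sema4d was at 15.6 CPM in day 1 cells, with a highest cell of 290.1 CPM, against 61.7 CPM in controls, with a highest cell of 492 CPM. Sema5b was at 6.51 CPM in day 1 cells, with a highest cell of 289 CPM, against 19.4 CPM in controls, with a highest cell of 336 CPM. The median cell was at 0 in each group for both genes. Reads of Sema4d were found in 11 of 58 day 1 and 7 of 31 control cells, and of Sema5b in 5 of 58 and 7 of 31. The control level was again unequal between title sets, being higher over the J titles, at 84.8 CPM for Sema4d and 27.4 CPM for Sema5b, with 11.7 CPM and 2.16 CPM over the 9 other cells. The log2 ratios of -1.92 for Sema4d and -1.44 for Sema5b were thus 0.39 and 1.25 against those 9 cells. Without microglia-rich cells the ratio of Sema4d was -2.69.

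Among receptors at day 1, Nrp1 had the most reads and Plxna4 came next. Nrp1, the co-receptor of most class 3 semaphorins and of VEGF, was at 331 CPM in day 1 cells, with a median of 227 CPM and a highest cell of 1454 CPM, against 189 CPM in controls, with a median of 62.1 CPM and a highest cell of 693 CPM. Its log2 ratio of 0.80 was under the 2-fold line, while those of the mean over cells (1.11) and of thinned cells (1.05) were past it. Nrp2, the co-receptor of Sema3f, was at 75.2 CPM in day 1 cells and 31 CPM in controls, with a log2 ratio of 1.25, which was 0.76 by the mean over cells, 0.72 in thinned cells and -0.13 against the 82.5 CPM of GFP cells. Plxna1, a signalling partner of neuropilins, was at 25.1 CPM in day 1 cells and 9.85 CPM in controls, with a log2 ratio of 1.27, which was 0.74 by the mean over cells, 0.91 in thinned cells and 0.28 against the 9 controls with other titles. Plxna1 shares 970 bases of exon with Gm26811 on the other strand, and the sources used here do not say whether reads were counted by strand.

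Plxna2 and Plxna4 are the plexins of mossy fibre layering in mice. Plxna2 was at 35 CPM in day 1 cells and 74.1 CPM in controls, a log2 ratio of -1.06 that was -0.88 by the mean over cells and -0.11 without microglia-rich cells, although a read was present in 26 of 58 day 1 cells and 9 of 31 control cells. At equal depth these shares were 25.9% of day 1 cells and 27.6% of control cells, so the wider detection at day 1 was not seen once depth was matched. Plxna4 was at 190.4 CPM in day 1 cells and 321 CPM in controls, and its log2 ratio of -0.75 was under the 2-fold line. Plxnb2, a receptor of class 4 semaphorins, was at 22 CPM in day 1 cells and 8.62 CPM in controls (log2 ratio 1.26), and the ratio was 0.53 by the mean over cells, 0.65 in thinned cells, 0.91 without microglia-rich cells and 0.05 against the 9 controls with other titles. GFP cells had 40.6 CPM of Plxnb2, and its ratio was -0.85 with GFP cells in place of controls.

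**Figure D2:**
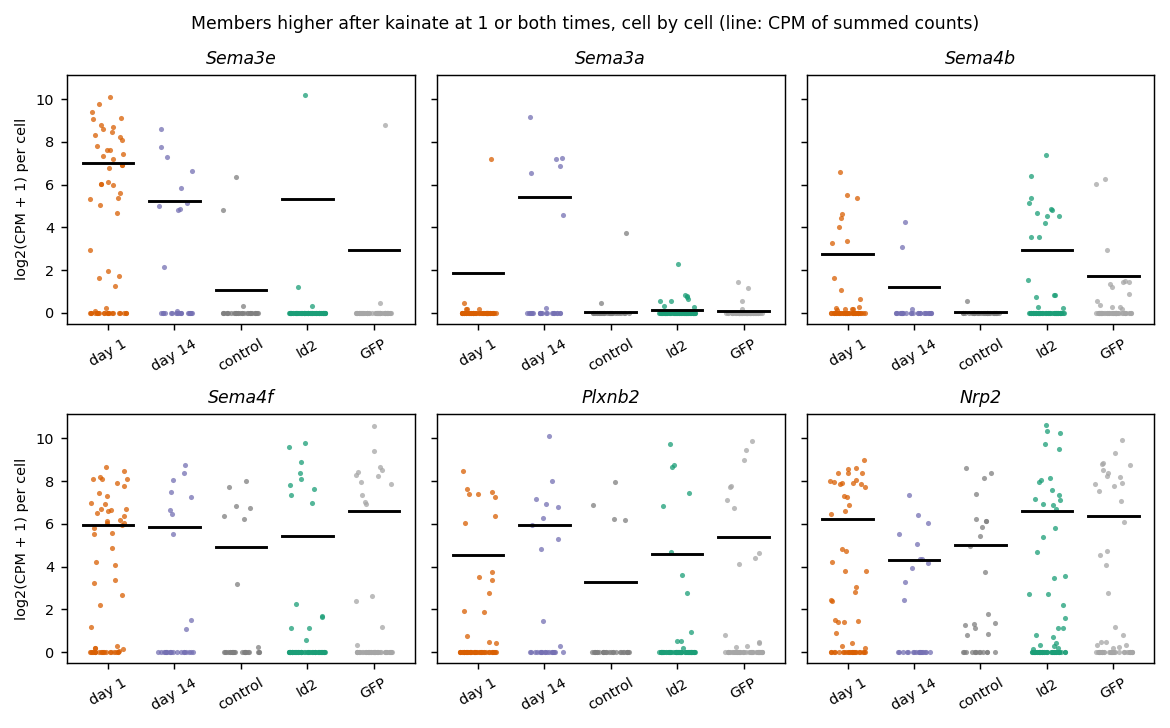
Cells of the 5 groups for 6 members that were higher than controls at 1 or both times after kainate. Each point is a cell at the log2 of its CPM plus 1, and the line is the CPM of the group's summed counts. Sema3e points fill the upper range at day 1 in 21 cells above 100 CPM, whereas the Id2 and GFP lines for Sema3e rest on 1 cell each.

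At day 14, the members called higher than control were Sema3a, Sema3e and Plxnb2. Of the 16 members measured at day 14 against control, 3 were called higher and 4 lower. Over all 9469 measured genes, 23.8% were called higher and 15.8% lower. The median log2 ratio was 0.03 over the 16 members, against 0.14 over all measured genes. The lower members were Sema4d, Sema5a, Sema5b and Sema6b. Of these 7 called members, only Sema6b did not pass 2-fold in all 3 versions of the ratio. Without microglia-rich cells, over 9 day 14 and 14 control cells, 7 members were called higher and 7 lower of 19 measured. Over all 9526 genes measured without those cells, 28.8% were called higher and 26.6% lower. Nrp2 then had a ratio of 0.91, beside -0.67 over all cells, Plxna2 1.16 beside 0.30, and Sema4a 2.21 beside 0.86.

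Sema3a is the secreted ligand of Nrp1 and class A plexins, which collapses growth cones. It was at 42.1 CPM in day 14 cells, with a median of 0 and a highest cell of 576 CPM, against 0.0298 CPM in controls, where 2 cells had a single read each. A read was present in 7 of 29 day 14 cells (24.1%, exact interval 10.3% to 43.5%), 4 of them above 100 CPM, and in 2 of 31 control cells (6.45%, 0.791% to 21.4%). This gave a log2 ratio of 5.39 (counting interval 5.25 to 5.45), between 3.23 and 8.34 over the alternatives. Without microglia-rich cells it was 4.68, over 9 day 14 cells at 24.6 CPM and 14 control cells with no read. Sema3a was therefore a strong signal of a few day 14 cells, and 1 of them held 40.2% of the reads. All 7 of these cells had Nrp1 reads and 6 had Plxna4 reads, genes that were read in 72.4% and 79.3% of day 14 cells.

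Sema3e was lower at day 14 than at day 1, and above control. It was at 37.1 CPM in day 14 cells, with a median of 0 and a highest cell of 394 CPM, and a read was present in 11 of 29 cells. Against control the log2 ratio was 4.17 (counting interval 3.96 to 4.37), between 2.29 and 5.19 over the alternatives. The lowest of these values was that without microglia-rich cells, when day 14 cells held 18.9 CPM and control cells 3.09 CPM.

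Plxnb2, which takes part in the migration of granule cell precursors in mice, was at 60.2 CPM in day 14 cells, with a highest cell of 1118 CPM, against 8.62 CPM in controls, with a highest cell of 249 CPM. Reads were found in 11 of 29 day 14 cells and 4 of 31 control cells. The log2 ratio was 2.67 (counting interval 2.54 to 2.80). It was 1.14 without microglia-rich cells, 1.46 against the 9 controls with other titles and 0.56 against GFP cells. Microglia are known to express Plxnb2, and day 14 cells without microglia-rich ones held 23.7 CPM against 10.2 CPM in such control cells. The part of microglial RNA in the remaining difference was not tested.

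The class 5 ligands and Sema6b were below control at day 14 as well. Sema5a was at 53.0 CPM in day 14 cells, with a median of 24.2 CPM and a highest cell of 414 CPM, against the 189 CPM of control cells. This gave a log2 ratio of -1.81 (counting interval -1.86 to -1.76), and it was -3.25 without microglia-rich cells. A read of Sema5a was present in 17 of 29 day 14 cells, beside 20 of 31 control cells, while the level was 3.56-fold lower. Sema6b, at 34 CPM in day 14 cells, had a log2 ratio of -1.13 to control, which was -0.87 by the mean over cells, -0.98 in thinned cells, -0.44 without the highest cell of each group and 0.38 against GFP cells. Without microglia-rich cells it was -2.84, with 27.7 CPM in day 14 cells and 204 CPM in control cells.

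Sema4d was at 18.1 CPM in day 14 cells, with a highest cell of 221 CPM, and its log2 ratio to control was -1.71. Without microglia-rich cells, 9 day 14 cells held 0.140 CPM and 14 control cells 75.2 CPM, and the part of microglial RNA in this was not tested. Against the 9 controls with other titles, the ratio was 0.59. Sema5b was read in 1 of 29 day 14 cells, at 0.808 CPM over the group, against 7 of 31 control cells and 19.4 CPM. Its log2 ratio was -3.50, -2.65 without microglia-rich cells and -0.81 against the controls with other titles.

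**Figure D3:**
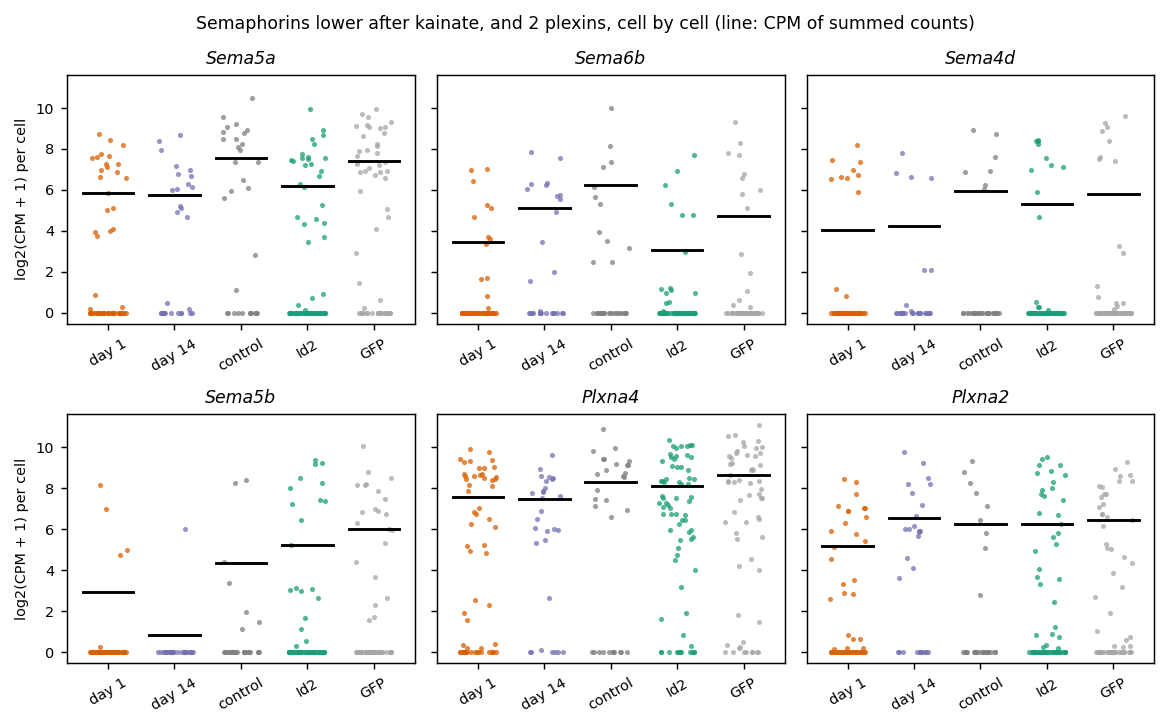
Cells of the 5 groups for 4 semaphorins that were lower than controls after kainate, and for Plxna4 and Plxna2. Each point is a cell at the log2 of its CPM plus 1, and the line is the CPM of the group's summed counts. The Sema5a line lies lower at day 1 (56.9 CPM), at day 14 (53.0 CPM) and in Id2 cells (72.2 CPM) than in control (189 CPM) and GFP cells (170.4 CPM).

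Between the days, Sema3e was lower and Sema3a higher at the later time, and the neuropilins were lower. Of the 16 members measured at day 14 against day 1, 5 were called higher and 5 lower, and over all 9823 measured genes 17.4% were called higher and 16.6% lower. Nrp1 was at 119.7 CPM at day 14, with a median of 56.7 CPM and a highest cell of 655 CPM, against 331 CPM at day 1. Its log2 ratio of -1.46 (counting interval -1.48 to -1.44) kept its call under all 12 alternatives. Nrp2 was at 19.1 CPM at day 14, with a median of 0 and a highest cell of 161 CPM, against 75.2 CPM at day 1, with a median of 1.81 CPM and a highest cell of 516 CPM. The log2 ratio of Nrp2 was -1.92, and -0.76 without microglia-rich cells. Both co-receptors were thus lower in level, and in share of cells, at day 14.

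Sema3e was 3.46-fold lower at day 14 than at day 1 (log2 ratio -1.76, or -2.75 without microglia-rich cells, between -2.75 and -1.66 over 12 alternatives). Sema3a had 42.1 CPM at day 14 and 2.64 CPM at day 1, where a single cell held 99.7% of the reads, and its log2 ratio was 3.56, or 2.68 without microglia-rich cells. Sema6b was at 34 CPM at day 14 and 10.1 CPM at day 1, with a read in 14 of 29 day 14 cells and 13 of 58 day 1 cells. Its log2 ratio of 1.66 lay between 1.21 and 1.81 over the alternatives. Plxna2 was at 91.4 CPM at day 14, with a median of 50.2 CPM and a highest cell of 875 CPM, against 35 CPM at day 1, with a median of 0 and a highest cell of 351 CPM. The log2 ratio of Plxna2 was 1.36, between 1.09 and 1.89. The class 6 ligand Sema6b and the plexin Plxna2 were thus higher at the later time.

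Plxnb2 was at 60.2 CPM at day 14 and 22 CPM at day 1, and its log2 ratio of 1.41 was 0.23 without microglia-rich cells. Sema4a, a ligand known from immune cells, was at 21.9 CPM at day 14 and 10.01 CPM at day 1 (log2 ratio 1.06). Without microglia-rich cells it was at 33.6 CPM in day 14 cells and 10.7 CPM in day 1 cells. Sema4b was at 1.32 CPM at day 14 and 5.78 CPM at day 1 (log2 ratio -1.55, or -2.88 without microglia-rich cells), with a read in 3 of 29 and 17 of 58 cells. Sema6d, a class 6 ligand of Plxna1 and Plxna4, was at 24.1 CPM at day 14 and 55.4 CPM at day 1 (log2 ratio -1.17). This difference was under 2-fold in the other versions, at -0.63 by the mean over cells and -0.72 in thinned cells, and at -0.55 without microglia-rich cells.

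**Figure D4:**
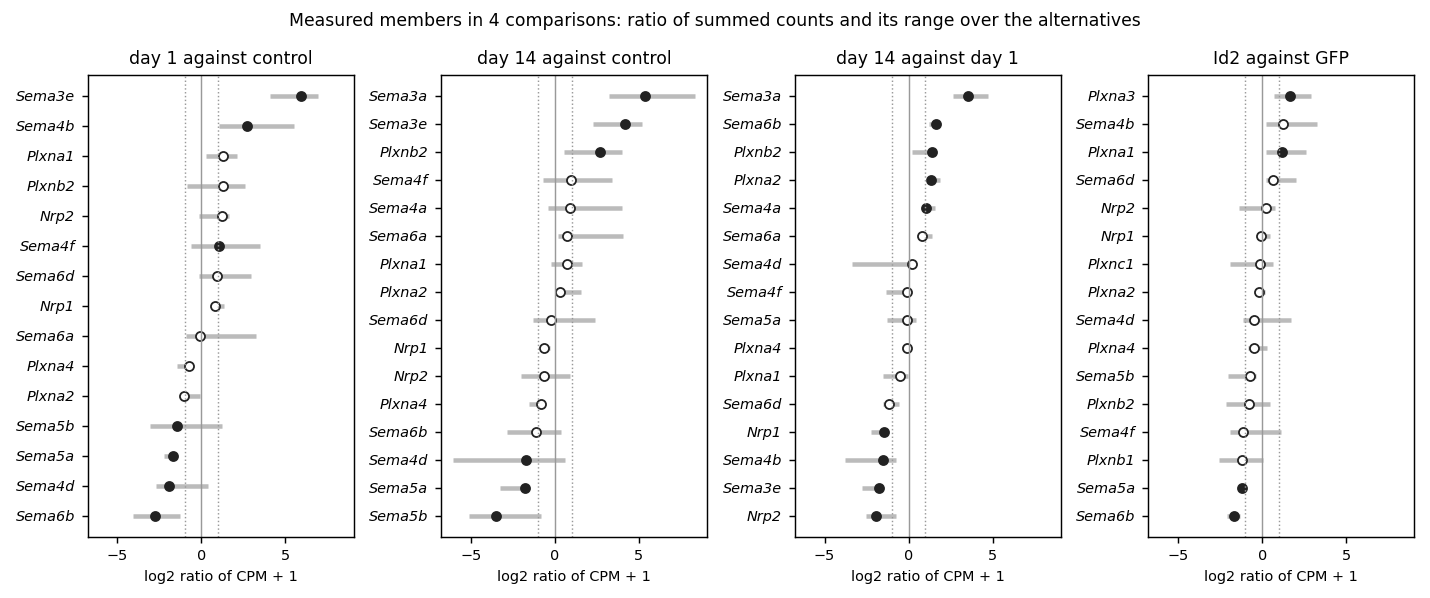
Log2 ratios of all measured members in the 4 comparisons. Points are ratios of summed counts, filled where the mean over cells and the thinned cells also passed 2-fold with the same sign; bars span the alternatives, and dotted lines mark 2-fold. Sema3e lies farthest right at day 1, Sema3a at day 14, and the bars of Sema4d and Sema4f cross 0 in both comparisons with control.

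Between Id2 and GFP cells, 9 of the 16 measured members were within 2-fold of each other. Of these 16, 3 were called higher and 4 lower, against 10.2% and 12.6% of all 7846 genes measured in this comparison. The median log2 ratio was -0.36 over the members and -0.10 over all measured genes. The members described in full were Plxna1 and Plxna3, which were higher, and Sema5a and Sema6b, which were lower. Values are also given within 2 sets of titles. Titles up to IDS95 held 43 cells in each group, and titles from IDS101 on held 28 Id2 and 16 GFP cells. Within each set, Id2 and GFP cells carry separate runs of title numbers. A possible batch and the group thus cannot be told apart there either.

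Sema5a was at 72.2 CPM in Id2 cells, with a median of 0 and a highest cell of 974 CPM, against 170.4 CPM in GFP cells, with a median of 32.1 CPM and a highest cell of 994 CPM. A read was present in 29 of 71 Id2 cells and 36 of 59 GFP cells. The log2 ratio was -1.23 (counting interval -1.26 to -1.19), with -1.18 in the first title set and -1.36 in the second. Without microglia-rich cells it was -0.997, just under the 2-fold line, and it passed that line in 12 of 14 alternatives. Sema6b was at 7.47 CPM in Id2 cells, with a highest cell of 206 CPM, against 25.8 CPM in GFP cells, with a highest cell of 636 CPM. The log2 ratio of Sema6b was -1.66 (counting interval -1.76 to -1.57), between -2.08 and -1.31 over the alternatives, with 4.72 CPM in Id2 and 17.7 CPM in GFP cells of the first title set, and a ratio of -2.03 in the second. The levels of both ligands were thus lower in Id2 cells within each title set.

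Plxna3, the plexin partner of Nrp2 in the pruning of mossy fibre branches, was at 42.8 CPM in Id2 cells, with a highest cell of 1284 CPM, against 13 CPM in GFP cells, with a highest cell of 357 CPM. Reads were found in 26 of 71 Id2 cells and 11 of 59 GFP cells. This gave a log2 ratio of 1.65 (counting interval 1.57 to 1.72), with 0.72 in the first title set and 2.91 in the second, where Id2 cells held 84.1 CPM and GFP cells 10.3 CPM. Plxna1 was at 28.9 CPM in Id2 cells, with a highest cell of 1094 CPM, against 12.5 CPM in GFP cells, with a highest cell of 274 CPM. A read was present in 14 of 71 Id2 cells (19.7%) and 12 of 59 GFP cells (20.3%), so Plxna1 was not more widely read in Id2 cells. Plxna1 passed the 20% filter through GFP cells alone, and 1 cell held 25.7% of its Id2 reads. Its log2 ratio of 1.15 was 1.83 in the first title set and 0.23 in the second. The size of the difference in each of these plexins thus depended on the title set.

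The other 3 called members moved with few cells or with the title set. Sema4b was at 6.61 CPM in Id2 cells and 2.26 CPM in GFP cells (log2 ratio 1.22), with 0.22 and 3.24 within the title sets. Plxnb1, a receptor of Sema4d, was at 1.76 CPM in Id2 cells and 5.41 CPM in GFP cells, and 1 cell held 86.1% of the reads in Id2 cells and 91.8% in GFP cells. Its log2 ratio of -1.22 was 0.022 in thinned cells and -2.57 without microglia-rich cells. Sema4f was at 42.8 CPM in Id2 cells and 95.1 CPM in GFP cells, and 40.7% of the GFP reads came from a single cell. Sema3e, the leading member of the day 1 cells, was read in 3 of 71 Id2 cells and 2 of 59 GFP cells, and its 39.8 CPM in Id2 cells and 6.58 CPM in GFP cells came almost wholly from 1 cell each.

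The receptors are set side by side per length. Nrp1 had 33.8 CPM per kb of exon at day 1, 12.2 at day 14 and 19.3 in controls, and 19.8 in Id2 against 20.99 in GFP cells. Plxna4, the plexin with the highest level, had 13.5 CPM per kb at day 1, 12.5 at day 14 and 22.8 in controls, and 19.6 in Id2 against 28.1 in GFP cells. Next among plexins in controls were Plxnc1, the receptor of Sema7a, at 5.06 CPM per kb, and Plxna2 at 4.31. Plxnc1 stood at 42.2 CPM in controls, from 5 of 31 cells, and at 13.4 CPM in day 1 and 5.49 CPM in day 14 cells; it was not measured in the kainate comparisons, as under 20% of the cells had a read. Plxnb3 was read in at most 3 cells of any group, and Plxnd1 in at most 5.

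**Figure D5:**
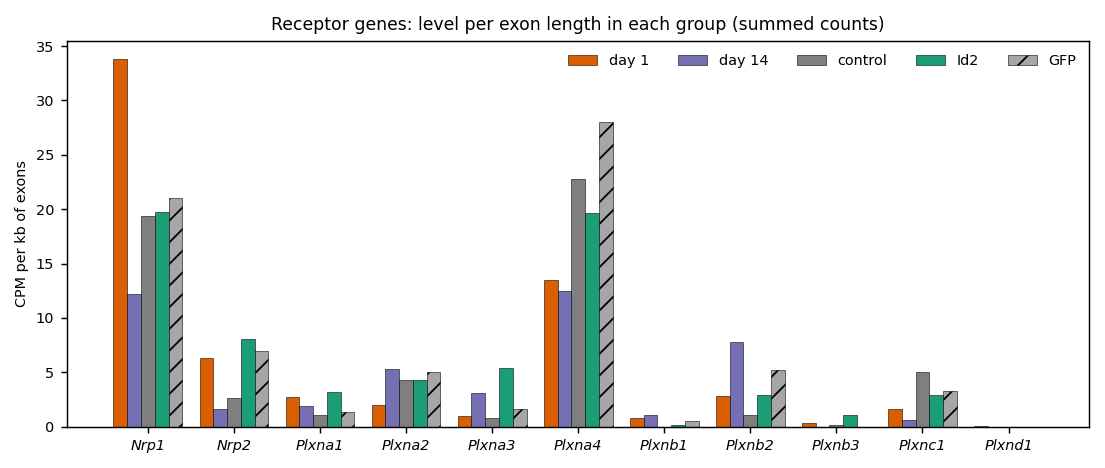
Level of the 11 receptor genes per kb of annotated exon, with 1 bar for each group (CPM of summed counts divided by exon length). Nrp1 and Plxna4 exceed 12 CPM per kb in every group, the day 1 bar of Nrp1 reaches 33.8, and Plxnd1 stays near 0. The bars carry no error because each group is 1 sample.

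Members outside the measured set were low or rested on few cells. In the day 1 comparison 16 members did not pass the filter: all class 3 semaphorins except Sema3e, then Sema4a, Sema4c, Sema4g, Sema6c and Sema7a, and the plexins Plxna3, Plxnb1, Plxnb3, Plxnc1 and Plxnd1. Sema3f, the ligand of the mossy fibre pruning pathway, had at most 0.419 CPM in any group, and no read in controls (at most 0.0447 CPM for 3 counts). Sema3c reached 30.3 CPM at day 14, of which 1 cell held 99.3%, and Sema3b reached 20.6 CPM in Id2 cells, of which 1 cell held 98.4%. Sema7a, which binds plexin C1, was at 0.698 CPM in day 1 cells, 2.81 CPM in day 14 cells and 0.0447 CPM in controls, with reads in 9 of 58, 7 of 29 and 2 of 31 cells. At equal depth these shares were 3.45% at day 1, 6.90% at day 14 and 3.45% in controls, so cells with a read were not more frequent at day 1 than in controls once depth was matched.

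Sema6a and Sema6d, further class 6 ligands of class A plexins, were within 2-fold of control at day 1 and day 14 by summed counts, but not in every version. At day 1, Sema6d had a log2 ratio of 0.92, which was 1.33 by the mean over cells, 1.1 in thinned cells and 2.94 without microglia-rich cells (58.01 CPM in day 1 and 6.67 CPM in control cells). Its day 14 ratio of -0.25 was 2.39 without microglia-rich cells. The day 14 ratio of Sema6a was 0.73, and 1.23 by the mean over cells, and it lay between 0.15 and 4.04 over the alternatives. Sema6a was at 8.83 CPM in day 1, 16.2 CPM in day 14 and 9.36 CPM in controls, and at 4.46 CPM in Id2 and 8.16 CPM in GFP cells. Sema6d was at 55.4 CPM in day 1, 24.1 CPM in day 14 and 28.9 CPM in controls, and a read was present in 29 of 58, 7 of 29 and 5 of 31 cells. In Id2 cells it was at 93.1 CPM against 60.3 CPM in GFP cells, with a read in 29 of 71 and 24 of 59 cells. Sema6c did not exceed 9.36 CPM in any group.

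The other genes of the pathway were taken from 6 lists of partners and effectors. For the counts below, the shares over all measured genes were 23.2% higher and 15.2% lower at day 1 against control. They were 23.8% and 15.8% at day 14 against control, and 17.4% and 16.6% at day 14 against day 1. In Id2 against GFP cells they were 10.2% and 12.6%. Of 18 co-receptors and receptor partners, 8 were measured at day 1, with 1 called higher and 3 lower; 2 were called higher and 1 lower at day 14, and 0 higher and 2 lower of 6 in Id2 cells. Trem2, a microglial receptor that can pair with Plxna1, was at 7.27 CPM at day 1, 182 CPM at day 14 and 141 CPM in controls, and Cd72, an immune receptor of Sema4d, at 41.1, 204 and 34.7 CPM. Trem2 is itself among the summed microglial markers, and it ran in the same order over these groups as their sum. The part of microglial RNA in these values was not tested. Itgb1, an integrin subunit that binds Sema7a, was at 53.0 CPM in day 1 and 59.4 CPM in day 14 cells, against 7.53 CPM in controls. Igf1r was at 3.02 CPM in Id2 cells against 27.1 CPM in GFP cells.

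Of 7 other neuropilin ligands, 2 were measured at day 1, with 0 called higher and 1 lower, 3 at day 14, with 1 higher and 0 lower, and 1 in Id2 cells, which was within 2-fold. Vegfb was at 3.55 CPM in day 1 cells against 25.3 CPM in controls. Tgfb1 was at 0.0108 CPM in day 1, 16.1 CPM in day 14 and 3.54 CPM in control cells. Of 7 processing enzymes, 5 were measured, with 1 called higher and 1 lower at day 1, 1 higher and 0 lower at day 14, and 1 higher and 0 lower in Id2 cells. Furin, which cleaves class 3 semaphorins, was at 45.5 CPM in day 1 cells against 17.9 CPM in controls, and at 10.8 CPM in Id2 cells against 0.645 CPM in GFP cells. Adam17, a shedding enzyme, was at 7.3 CPM in day 1, 48.9 CPM in day 14 and 16.3 CPM in control cells. Tgfb1 and Adam17 ran in the same order over these groups as the summed microglial markers. The part of microglial RNA in their values was not tested.

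Inside the cell, collapsin response mediators and MICAL proteins carry semaphorin signals to microtubules and actin. The list also holds the MICAL-like Micall1 and Micall2, which that statement does not cover. Of 10 listed, 7 were measured, with 3 called higher and 1 lower at day 1, 0 higher and 2 lower at day 14, 0 in either direction in Id2 cells, and 1 higher and 4 lower at day 14 against day 1. The last list median was -1.15, against -0.02 over all measured genes. Dpysl2 was at 31.2 CPM at day 14 and 165 CPM at day 1, and Dpysl3 was at 56.8 CPM at day 14, 198 CPM at day 1 and 220.1 CPM in controls. Micall1 was at 85.8 CPM in day 1 cells against 31.9 CPM in controls. Mical2 was at 139.5 CPM in day 1 cells against 502 CPM in controls.

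Of 24 small GTPases and regulators, 19 were measured at day 1, with 2 called higher and 4 lower, 18 at day 14, with 1 higher and 6 lower, and 17 in Id2 cells, with 1 higher and 0 lower. Rnd3, a small GTPase, was at 176 CPM in day 1 cells against 7.77 CPM in controls, and at 26.8 CPM at day 14. Rnd2, a related GTPase, was at 3.16 CPM in day 1 cells against 23.8 CPM in controls. Rasa1 was at 38.8 CPM in day 1 cells against 121.9 CPM in controls, and Rap2a at 38.9 CPM in day 1 cells against 134 CPM in controls.

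Of 17 kinases and adaptors, 14 were measured at day 1, with 2 called higher and 3 lower, 13 at day 14, with 0 higher and 3 lower, and 12 in Id2 cells, with 1 higher and 2 lower. Fes, a tyrosine kinase that acts in Sema3a signalling, was at 13 CPM in day 1 cells, with a read in 27.6% of them, and had no read in control cells. Gsk3b was at 20.003 CPM in day 14 cells against 95.3 CPM in controls. Plxdc2, which is on this list but is not a kinase, was at 25.7 CPM in day 1 cells and 22.7 CPM in day 14 cells, against 93.6 CPM in controls. Rock1, a serine and threonine kinase, was at 26.2 CPM in Id2 cells against 94.6 CPM in GFP cells. Each of these counts describes 1 sample a group.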

How the data were processed

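Libraries were made, per the labels, from patch-pipette cytosol with the Nextera XT kit. Per the submitters' processing notes, Trimmomatic, STAR and featureCounts were used with GRCm38, without versions or settings. One table that the authors deposited holds counts, as whole numbers, of 22800 genes in 291 cells. A second table deposited by the authors holds a scaled signal of 252 cells, the same counts times 1 factor in each cell, which served only as an alternative. Their names say the reverse, so the units were settled on the values. Of 304 labelled samples, 13 had no column and were not used here. Of 39 libraries labelled as failing, 38 entered only an alternative and 1, labelled low_DG, none. No comparison used the 2 day 1 cells labelled contra or the 3 libraries labelled low_DG, of which the passing pair each match the counts of 1 control cell at r = 0.997.

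Counts were summed per group and scaled to CPM (Python 3.11.15, numpy 2.4.6, pandas 2.3.3, scipy 1.17.1), with a pseudocount of 1 CPM in ratios. The ratio step was tested on simulated data. Genes were named by the rule given in the report, with up to 4 measured genes for each of 6 pathway lists by the same smallest ratio. The members and lists were chosen with earlier results of these data known. Alternatives changed the pseudocount, filter, depth, cells and control set. Exon overlaps and lengths come from GENCODE M21, and promoters from RefSeq. All 31 symbols matched the annotation.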

Additional observations from a re-analysis of the deposited data

Results flagged for a closer look

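Nrp2 stood on opposite sides of control at the 2 times after kainate: its log2 ratio was 1.25 at day 1 and -0.67 at day 14. Without microglia-rich cells the day 14 ratio was 0.91, on the same side as the day 1 ratio of 1.67, and against GFP cells the day 1 ratio was -0.13. Each value comes from 1 sample a group and the same controls, and their difference was not tested.

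Sema4f stood on opposite sides of GFP in the 2 title sets of the Id2 experiment. Its log2 ratio was -1.91 over titles up to IDS95, with 28.9 CPM in Id2 cells and 111.4 CPM in GFP cells, and 1.14 over titles from IDS101, with 71.7 CPM in Id2 cells and 32 CPM in GFP cells. This difference was not tested either.

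Sema3e was present in the cells of the other side at day 1, which enter no comparison. Both of these 2 cells had reads of Sema3e, at 102.1 CPM in the lower and 227 CPM in the higher, above the highest control cell at 80.6 CPM. Nrp1 was read in both as well, at 361 CPM over the pair.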

How the results depend on the processing

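No paired analysis was possible because the labels give no replicate numbers or animals. Of 881 recomputed ratios of members, 56 changed sign, 11 of them of called members and 45 of members not called; of those that kept it, 301 moved by less than the interval of the main value and 524 by more. For the called members, with GFP cells in place of controls, day 1 ratios were -0.13 for Nrp2, -0.85 for Plxnb2 and -0.63 for Sema4f, and the day 14 ratio of Sema6b was 0.38. Against the 9 controls with other titles, day 1 ratios were 0.39 for Sema4d, -0.43 for Sema4f and 1.25 for Sema5b, and the day 14 ratio of Sema4d was 0.59. In Id2 against GFP, Plxnb1 was at 0.022 in thinned cells and 0.042 in scaled values, and Sema4f at 1.14 over titles from IDS101. Counts of members past 2-fold also moved, as did the shares over all measured genes. At day 14 against control without microglia-rich cells, these shares were 28.8% higher and 26.6% lower. In Id2 cells over the second title set, they were 23% higher and 19.6% lower. At day 1, 3 members were lower with failed libraries added, and 2 higher against GFP cells. At day 14 against control, 5 were higher by the mean over cells, with failed libraries or against the other controls, 6 without the highest cells or against J-titled controls, 7 without microglia-rich cells and 8 with no filter. Those lower were 7 without microglia-rich cells, 7 against GFP cells and 8 with no filter. At day 14 against day 1, 3 were lower by the mean over cells and in thinned cells, and 11 with no filter. Those higher were 3 without the highest cells and 8 with no filter. In Id2 cells, 2 were lower by the mean over cells and without the highest cells, and 1 in thinned cells. Those higher were 1 in thinned cells, with a pseudocount of 5 and over the first title set, 6 over the second, and 8 with no filter. The cause of these shifts was not tested. The alternative without cells under 500000 reads was chosen after seeing the data, and it kept each of these counts within 1.5 times.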
